A study of Mus musculus with 27 samples.

Results

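The genes described here are the hypoxia response and glycolysis genes: 41 genes comprising direct targets of the hypoxia-inducible factors (HIF), the glucose and lactate transporters and regulators that set the use of glucose, the enzymes of glycolysis, and the 3 HIF alpha subunits. A gene was taken as measured where a row of the array carried its symbol alone, taking, where a gene had several such rows, that of highest mean. By that rule 36 of the 41 were measured, among 22180 genes in all: 13 HIF targets, 6 genes of fuel uptake and switching, 14 glycolytic enzymes and 3 subunits. Bnip3l, Ankrd37 and Aldoa lay only on rows that named several genes, and Gpi1 and Eno1 had no row by these symbols, so these 5 were not analysed here.

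The samples were 27 prostate tumours, each taken from a transgene-positive F2 male of the cross of C57BL/6-Tg(TRAMP)8247Ng/J with PWK/PhJ, each hybridised to 1 array. They form 1 group whose labels give no contrast of treatment, genotype or time. F2 animals differ from one another in the parental alleles they carry, and the part of this in the differences between tumours was not tested. All 27 carry the TRAMP transgene, which expresses SV40 T antigens from a probasin promoter in prostate epithelium, and the labels place the endpoint at an age of 30 weeks or at a humane limit, so the age may differ between animals. Each value is the log2 expression level of the authors' table. Tumours are named by the animal number in their labels. Array medians lay between 5.67 and 5.82 log2 and the median row of the array had a mean of 5.79, which is used below as a mark for a low signal. Of the cell type marker lists, the neuroendocrine score separated 4 tumours with low values from 23, and the luminal epithelium score separated 18 tumours with low values from 9 with high ones (P425, P1276, P966, P219, P569, P471, P803, P1469 and P502). The secretory prostate score was highest in P425 and P219, at 4.45 and 2.85 against -1.06 to 1.14 in the others, and P219, P268 and P425 stood apart by the highest skeletal muscle or adipose scores. Oxygen was not measured, and in bulk tissue fewer cells of a type and less RNA per cell cannot be told apart.

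HIF alpha subunits are made continuously and, where oxygen is present, are hydroxylated by the EGLN prolyl hydroxylases, bound by the VHL ubiquitin ligase and degraded. At low oxygen they escape hydroxylation, pair with ARNT and bind a short core motif, RCGTG, at genes that raise glucose uptake, glycolysis and lactate export, restrain mitochondrial pyruvate use, and feed back on HIF itself. Since the control acts mainly on the protein, RNA levels of the subunits are a poor guide to HIF activity, whereas RNA of targets such as Egln3 is widely used as its readout. Glycolytic enzyme genes also respond to Myc and to growth factor signalling, and several have isoforms restricted to muscle or nerve.

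The promoters of 6 members are shown because the levels of these genes rose together in the tumours or, for Egln3 and Pgk1, served as the measure for the rest. They are the 250 bases before the RefSeq transcription start (build GRCm38.p6), 5′ to 3′ on the strand of the gene, with every ACGTG or GCGTG on either strand (CACGT or CACGC on the printed strand) in capitals. Egln3 lies on the minus strand at chr12:54203875-54204124, Bnip3 on the minus strand at chr7:138909507-138909756, Ddit4 on the minus strand at chr10:59951771-59952020, Pgk1 on the plus strand at chrX:106186850-106187099, Ldha on the plus strand at chr7:46845554-46845803 and Tpi1 on the minus strand at chr6:124814159-124814408.
Egln3: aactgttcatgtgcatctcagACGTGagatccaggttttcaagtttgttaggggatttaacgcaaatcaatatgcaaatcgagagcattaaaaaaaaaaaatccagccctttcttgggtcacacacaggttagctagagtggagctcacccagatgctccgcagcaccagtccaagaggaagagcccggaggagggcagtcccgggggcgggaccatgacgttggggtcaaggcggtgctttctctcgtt
Bnip3: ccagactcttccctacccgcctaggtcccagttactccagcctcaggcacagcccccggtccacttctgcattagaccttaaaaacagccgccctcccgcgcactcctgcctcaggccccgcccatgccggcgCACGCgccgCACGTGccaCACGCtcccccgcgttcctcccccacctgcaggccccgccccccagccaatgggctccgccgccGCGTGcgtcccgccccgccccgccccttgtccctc
Ddit4: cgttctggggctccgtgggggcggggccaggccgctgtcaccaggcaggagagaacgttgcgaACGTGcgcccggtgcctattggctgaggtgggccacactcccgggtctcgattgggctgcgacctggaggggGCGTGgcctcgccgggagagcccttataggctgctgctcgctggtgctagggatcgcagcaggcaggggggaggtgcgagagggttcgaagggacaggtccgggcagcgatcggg
Pgk1: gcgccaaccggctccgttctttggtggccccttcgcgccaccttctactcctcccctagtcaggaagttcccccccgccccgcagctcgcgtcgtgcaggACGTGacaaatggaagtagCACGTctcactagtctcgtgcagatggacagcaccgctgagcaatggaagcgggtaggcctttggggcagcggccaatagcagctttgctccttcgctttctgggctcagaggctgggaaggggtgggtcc
Ldha: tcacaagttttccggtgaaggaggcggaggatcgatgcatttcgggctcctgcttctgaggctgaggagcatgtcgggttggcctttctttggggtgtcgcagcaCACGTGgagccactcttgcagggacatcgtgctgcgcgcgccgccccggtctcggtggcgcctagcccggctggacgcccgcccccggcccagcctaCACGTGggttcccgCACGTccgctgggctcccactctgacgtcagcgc
Tpi1: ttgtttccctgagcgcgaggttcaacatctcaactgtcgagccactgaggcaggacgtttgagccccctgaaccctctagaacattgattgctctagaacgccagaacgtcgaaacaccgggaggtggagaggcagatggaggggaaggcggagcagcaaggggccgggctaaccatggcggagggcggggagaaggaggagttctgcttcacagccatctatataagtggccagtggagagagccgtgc
Egln3 held 1 ACGTG, 229 bases before the start, and Pgk1 held 2, at 150 and 131 bases, one on each strand. Ldha held 5 counted over both strands, 4 of which are overlapping pairs within the palindrome CACGTG. Ldha has 2 listed starts, and the window before the other, not shown, held 0 ACGTG and 1 GCGTG. Tpi1 held neither motif in the window shown.

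Across the array, 20.4% of the 16990 genes with a promoter in the RefSeq table held ACGTG in the 250 bases before at least 1 start, and 47.8% held ACGTG or GCGTG. Of the 36 measured members 33 had a promoter entry, and 19 of these (57.6%) held ACGTG while 29 (87.9%) held either motif. The members' windows were also richer in G and C, with a median of 64.0% against 56.4% for all genes, and the part of base composition in the motif shares was not tested. Ndrg1, Slc2a3 and Epas1 had no entry. A match is a description of the letters and not a binding site.

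Members varied more between tumours than most genes of the array did. The median SD over the 27 tumours was 0.53 log2 for the 36 members and 0.30 for all genes, and 20 members (55.6%) spanned more than 4-fold against 25.3% of all genes. The genes were not matched for level. The mean of 32 of the 36 members lay above the median row level, and the part of level in this difference was not tested. The HIF targets had a median SD of 0.67 and 8 of 13 spanned over 4-fold, the uptake and switch genes 0.60 with 4 of 6, the enzymes 0.45 with 7 of 14, and the subunits 0.23 with 1 of 3.

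Among the HIF targets, Egln3, which encodes the prolyl hydroxylase PHD3 that marks HIF alpha for degradation, had the widest range. Its level ran from 4.96 log2 in P502 through a median of 7.51 to 10.18 in P1276, a 37.2-fold range, with an SD of 1.33 that 1.57% of genes exceeded. P1469 and P966 followed at 9.90 and 9.52, and P268 was second lowest at 5.77. Its paralogue Egln1, the prolyl hydroxylase PHD2 that is the main oxygen-dependent brake on HIF, was present in every tumour within a narrow range of 8.90, 9.47 and 10.003 (lowest, median, highest).

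The stress-responsive targets shared the same upper end. Ddit4, an inhibitor of the growth kinase complex mTORC1, ran from 6.69 in P502 through 8.78 to 10.26 in P1276, with P966 (10.21) and P1469 (10.02) next. Ndrg1, a gene induced by hypoxia and differentiation, ran from 7.97 in P268 through 9.33 to 11.22 in P1276, with P966 next at 10.76. P1276 and P966 were therefore the highest 2 tumours for both genes, while the low end was held by P502 and P235 for Ddit4 and by P268 and P219 for Ndrg1.

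Bnip3, a mitochondrial outer membrane protein that promotes mitophagy, ran from 7.23 in P912 through 8.90 to 10.14 in P1469. Ak4, a mitochondrial adenylate kinase, ran from 5.32 in P502 through 7.75 to 8.83 in P474, with P1469 nearly equal at 8.81. Adm, the vasodilator peptide adrenomedullin, was below the median row level in 15 tumours (median 5.53) and reached 8.86 in P1276, 8.52 in P966 and 7.82 in P233. Its values formed separate clusters of 15 tumours (4.94 to 5.58) and 12 tumours (5.81 to 8.86), whereas the levels of Bnip3 and Ak4 did not separate into clusters.

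The collagen prolyl 4-hydroxylase subunits P4ha1 and P4ha2 ran from 7.86 to 10.53 (median 9.63) and from 6.09 to 8.02 (median 7.12). P4ha1 was lowest in P425, the tumour with the highest adipose score. Kdm3a, a histone H3 lysine demethylase, stayed between 8.86 and 10.24, and Mxi1, a Myc antagonist, between 7.81 and 9.26 on its kept row. A further Mxi1 row ran from 5.03 to 8.89 and correlated with the kept row at r = 0.26. On the kept rows these 4 genes were above the median row level in every tumour.

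The carbonic anhydrases, membrane enzymes that handle the acid load of glycolysis, gave low signals. Car9, among the most used tissue markers of hypoxia, stayed between 5.26 and 6.04, with 16 of 27 tumours below the median row level and an SD of 0.23. A further Car9 row, with a lower mean, ranged from 4.14 to 7.16 and correlated with the kept row at only r = 0.15 over the 27 arrays, so the Car9 level depended on the row. Car12 formed clusters of 14 tumours (5.24 to 5.85) and 13 tumours (5.98 to 7.43), with its highest values in P619, P268 and P757 and its lowest in P966.

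**Figure D1:**
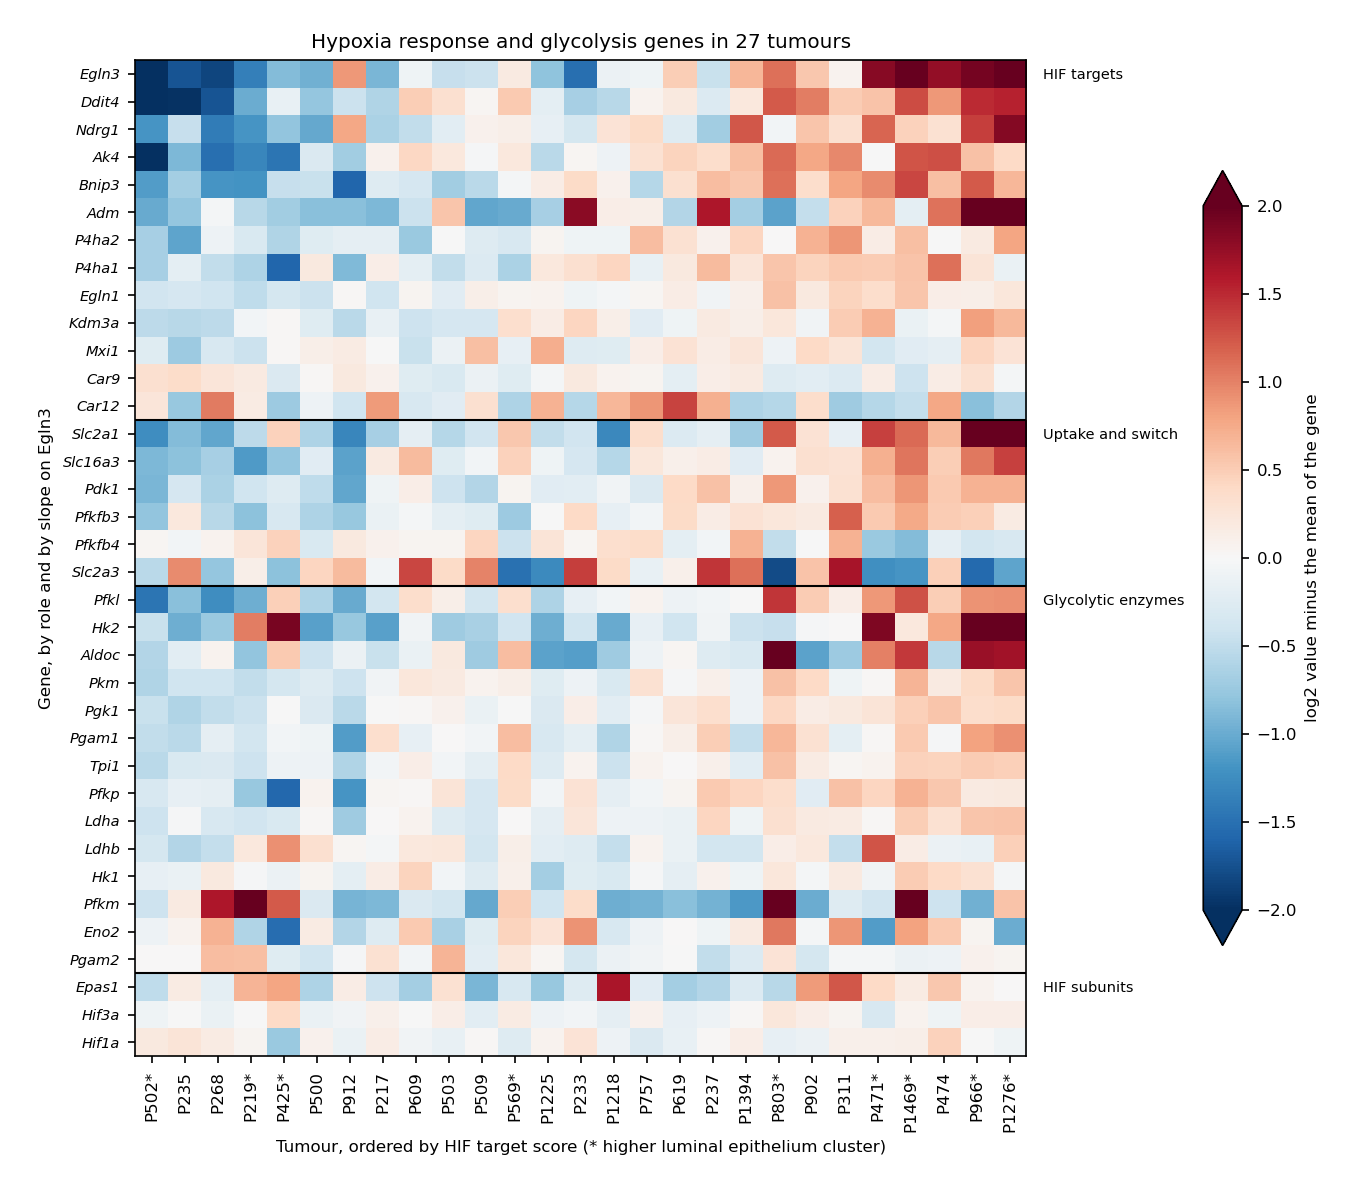
Log2 level of each of the 36 measured members (vertical axis, by role and then by slope on Egln3) minus that gene's mean, in 27 tumours (horizontal axis, from lowest to highest HIF target score); an asterisk marks the 9 tumours of the higher luminal epithelium cluster. P502 at the low end and P1276 and P966 at the high end are set apart across most HIF targets and several enzymes, while the 3 HIF subunits at the bottom, Hif1a on its kept row, show no such gradient.

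In the fuel uptake group, the main glucose transporter gene Slc2a1 (GLUT1) ran from 8.004 in P912 through 9.03 to 11.77 in P1276 and 11.70 in P966, a 13.6-fold range. The high-affinity neuronal glucose transporter gene Slc2a3 (GLUT3) covered nearly as wide a range, from 5.22 through 7.13 to 8.67, but in other tumours. It was lowest in P803 and P966 (5.45) and highest in P311, P237 (8.44) and P233 (8.39), so P966 was second highest for one glucose transporter and second lowest for the other.

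Slc16a3, which encodes the lactate exporter MCT4, ran from 7.28 through 8.49 to 9.79, highest in P1276. Pdk1, the kinase that shuts pyruvate dehydrogenase and so keeps pyruvate out of the mitochondria, ran from 6.24 in P912 through 7.23 to 8.17 in P1469. The bifunctional enzyme genes Pfkfb3 and Pfkfb4, which tune phosphofructokinase activity through a sugar phosphate, ranged from 6.80 to 8.82 and from 6.79 to 8.35. Both were highest in P311, but P1469 was second highest for Pfkfb3 (8.37) and lowest of all for Pfkfb4.

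Among the enzymes, the genes of the common lower pathway spanned 2.21-fold to 4.10-fold, with SDs of 0.32 to 0.47, and stayed above the median row level in every tumour. Pgk1, phosphoglycerate kinase, ran from 10.94 in P235 through 11.53 to 12.08 in P474. Tpi1, triosephosphate isomerase, ran from 10.68 through 11.29 to 11.87, and Pkm, pyruvate kinase, from 10.56 through 11.15 to 11.85. Ldha, the lactate dehydrogenase subunit favoured in glycolytic tissue, ran from 7.78 in P912 through 8.497 to 9.06 in P1276. Pgam1, phosphoglycerate mutase, ran from 8.78 in P912 through 9.85 to 10.82 in P1276. P912 held the lowest level of Tpi1, Pgam1 and Ldha, and P1276 ranked in the highest 3 for all 3.

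Of the upper pathway, which commits glucose, Hk2, the insulin-responsive and tumour-associated hexokinase, ran from 6.40 through 7.09 to 10.41, and formed separate clusters of 22 tumours (6.40 to 8.26) and 5 tumours (8.51 to 10.41). Those 5 were P1276, P966, P425, P471 and P219, all in the higher luminal cluster. The first 4 of them are also the 4 tumours of the lower neuroendocrine cluster. The other 4 tumours of the higher luminal cluster (P803, P1469, P569 and P502) had Hk2 levels of 7.03 to 7.70. The parts of luminal and neuroendocrine identity in the Hk2 level were not tested. Hk1, the widely expressed hexokinase gene, stayed between 7.82 and 9.01. Of the phosphofructokinase genes, the liver type Pfkl ran from 7.90 in P502 through 9.36 to 10.79 in P803, and the platelet type Pfkp from 8.45 in P425 through 10.07 to 10.72 in P1469.

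The muscle phosphofructokinase gene Pfkm had the widest range of the enzymes, 21.7-fold, from 5.11 through 5.87 to 9.55. It formed clusters of 18 tumours (5.11 to 6.00) and 9 tumours (6.45 to 9.55), led by P803, P219 (8.88), P1469 (8.36) and P268 (7.87). The skeletal muscle marker score was high in P219 and P268, at 2.94 and 2.02, but 0.28 in P803 and -0.33 in P1469. High Pfkm thus occurred at high, intermediate and low scores. The score is centred and does not show that muscle marker RNA was absent. Aldoc, the brain-type aldolase, ran from 7.85 through 8.73 to 10.97 and was highest in P803, P966 and P1276. Eno2, the neuronal enolase, ran from 6.56 in P425 through 8.09 to 9.14 in P803. Pgam2, the muscle mutase, and Ldhb, the lactate dehydrogenase subunit of oxidative tissue, were below the median row level in 24 and 25 tumours, with medians of 5.17 and 5.10.

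The HIF subunits differed in spread. Hif1a, on the kept row, ran from 8.97 in P425 through 9.73 to 10.17 in P474, with an SD of 0.23 that 72.0% of genes exceeded. Epas1, the HIF-2 alpha subunit found in endothelium and elsewhere, ran from 6.00 through 6.72 to 8.54 in P1218, with an SD of 0.64, close to the median of the HIF targets. Hif3a was below the median row level in all 27 tumours, with a highest level of 5.65. The median correlation between a subunit and a HIF target over the tumours was 0.08 (39 pairs), compared with 0.41 between pairs of HIF targets (78 pairs) and 0.01 between all pairs of genes on the same arrays.

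How far the members moved together was tested with Egln3 as the measure: every other gene was fitted on the Egln3 level scaled to an SD of 1, so that a slope is the log2 difference per SD of Egln3. In limma's fit 18 of 35 members rose with Egln3 at a Benjamini-Hochberg adjusted p under 0.05 and 0 fell (24 members had an unadjusted p under 0.05). Of all 22179 genes tested, 4.41% rose, 2.56% fell and 6.97% were called in either direction, so the members' share of 51.4% was above the background. The median slope was 0.24 for the members and 0.02 for all genes, and 27 of 35 members had a slope above 0. Egln3 itself was picked as the measure with its large spread in these tumours known.

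Of the HIF targets 7 of 12 rose with Egln3. Ddit4 had the steepest slope of all members at 0.87 ± 0.09 (SE, n = 27 tumours; limma adjusted p = 2.44e-06), followed by Ndrg1 at 0.70 ± 0.09 (limma adjusted p = 1e-04) and Ak4 at 0.65 ± 0.12 (limma adjusted p = 0.00267). Bnip3, P4ha2, Egln1 and Kdm3a rose by 0.21 to 0.55 per SD. Egln1, the other prolyl hydroxylase gene among the members, thus moved in the same direction as Egln3, at a slope of 0.24. A further prolyl hydroxylase gene outside the members, Egln2, had a slope of -0.11 that did not pass (limma adjusted p = 0.0972). Adm (0.47, adjusted p = 0.129) and P4ha1 (0.25, adjusted p = 0.11) did not pass, and Mxi1, Car9 and Car12 had slopes of 0.09, -0.07 and -0.18. The direction for Car9 depended on the row: with the mean of its rows the slope was 0.19 (limma adjusted p = 0.111).

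Of the uptake and switch genes 4 of 6 rose: Slc2a1 at 0.77 ± 0.13 (SE, n = 27; limma adjusted p = 0.00186), and Slc16a3, Pdk1 and Pfkfb3 at 0.50, 0.40 and 0.27. These are the glucose importer, the lactate exporter, the pyruvate dehydrogenase kinase and the activator of phosphofructokinase. The paralogues behaved differently: Slc2a3 had a slope of -0.33 (adjusted p = 0.277) and Pfkfb4 of -0.19 (adjusted p = 0.0892), neither past the threshold. The difference between paralogues was not tested.

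Of the enzymes 7 of 14 rose, at several but not all steps from hexokinase to lactate. Gapdh, a glycolytic enzyme gene outside the members, did not pass with Egln3 (slope 0.05, limma adjusted p = 0.281). With Pgk1 it did not pass either (slope 0.07, limma adjusted p = 0.202). Pfkl (0.60 ± 0.09; limma adjusted p = 0.000788) and Hk2 (0.59 ± 0.17; limma adjusted p = 0.0372) had the largest slopes (SE, n = 27). Aldoc rose by 0.56 per SD, and Pkm, Pgk1, Tpi1 and Ldha by 0.26, 0.24, 0.23 and 0.18. The remaining 7 did not pass: Pgam1 (0.24, adjusted p = 0.0658), Pfkp, Ldhb and Hk1 had slopes above 0, and Pfkm, Eno2 and Pgam2 had slopes between -0.04 and -0.01. On the kept rows none of the 3 subunits passed, with slopes of -0.02 for Hif1a, 0.11 for Epas1 and 0.02 for Hif3a. With the mean of its rows in place of the kept row Hif1a rose by 0.18 per SD of Egln3 (limma adjusted p = 0.0441), so the Hif1a result depends on the row.

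**Figure D2:**
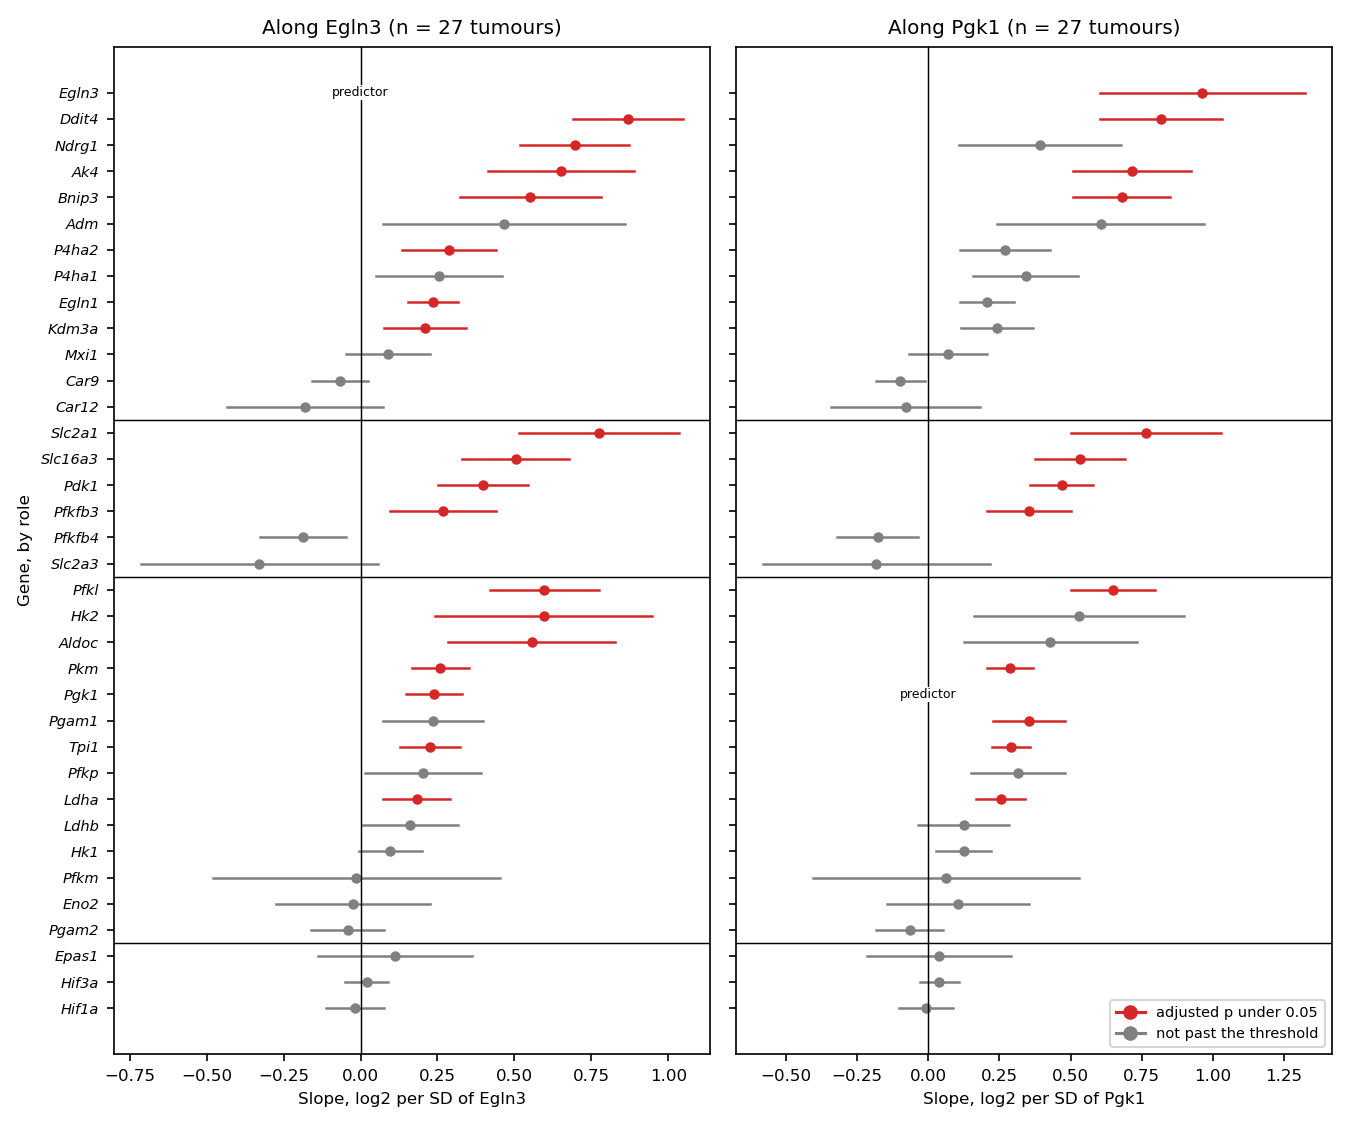
Slope of each member in log2 per SD of Egln3 (first panel) and per SD of Pgk1 (second panel) over 27 tumours, with 95% confidence intervals, ordered by role; red marks an adjusted p under 0.05 in limma and grey a slope that did not pass. Ddit4, Slc2a1, Ak4, Bnip3 and Pfkl lie far to the positive side in both panels, and the kept rows of Hif1a and Hif3a lie near 0.

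Of the 10 luminal epithelium markers 0 rose with Egln3 and 1 fell in limma's fit (4 at an unadjusted p under 0.05). Of their slopes 9 were above 0 and the median was 0.47. All 8 skeletal muscle markers had slopes below 0 and 0 were called (6 at an unadjusted p under 0.05). The separate part of either list in the result was not tested. The skeletal muscle score entered only together with other scores, as covariates in a fit given below. Fewer members passed within tumours of like luminal marker levels. The luminal epithelium score of the 3 tumours with most Egln3 was 2.47 (P1276), 1.62 (P1469) and 2.36 (P966), all 3 in the higher luminal cluster, but P502, with the least Egln3, was in that cluster too at 0.69. Within the 18 tumours of the lower luminal cluster only 1 of 35 members (Ddit4) was called against 0.0676% of genes, 28 slopes were above 0 and their median was 0.11, with 8 members at an unadjusted p under 0.05. Within the 9 tumours of the higher cluster limma called 0 of 35 members and 0 of 22179 genes, while 24 members and 2176 genes had an unadjusted p under 0.05, 27 slopes were above 0 and their median was 0.37. In the lower cluster the slopes of the called members Aldoc (-0.002) and Ldha (0.0086) were near 0, as were those of Adm (0.0085), Pfkp (0.013) and Pgam1 (-0.024). With fibroblast, smooth muscle, macrophage and skeletal muscle scores as covariates 15 members were called against 15.6% of genes. In the 23 tumours of the higher neuroendocrine cluster 12 members were called against 5.55% of genes. Hk2 was among those that did not pass in that cluster, with a slope of 0.20 (limma adjusted p = 0.245). The genes called over the whole array fell from 1546 to 445 without P1276, 562 without P966, 751 without P268, 933 without P235 and 975 without P233, and rose to 3032 without P425, while the members called stayed between 12 and 19.

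**Figure D3:**
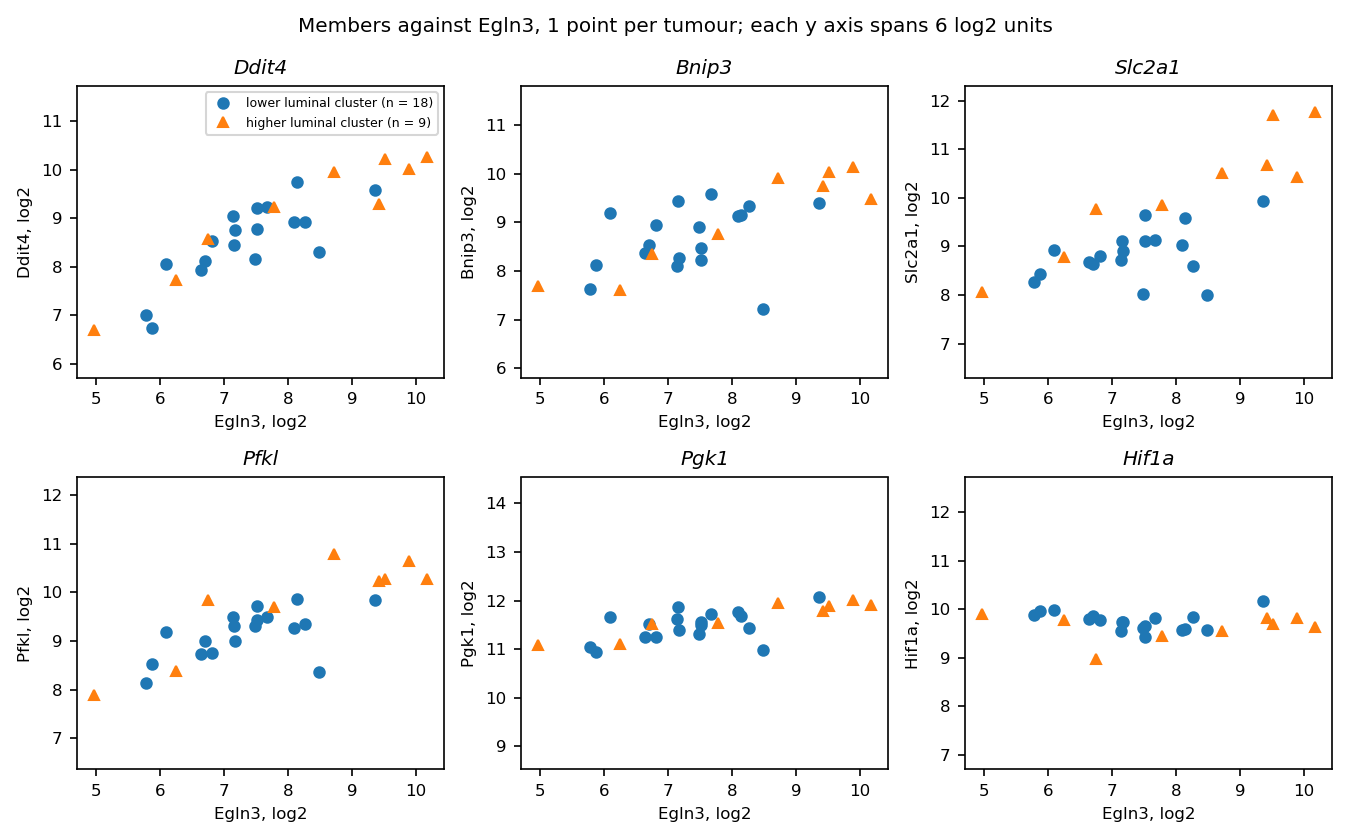
Level of Ddit4, Bnip3, Slc2a1, Pfkl, Pgk1 and Hif1a (vertical axes, log2, each spanning 6 units) against Egln3 (horizontal axis, log2), 1 point per tumour; triangles are the 9 tumours of the higher luminal cluster and circles the other 18. Ddit4, Bnip3, Slc2a1 and Pfkl climb with Egln3 among the triangles, Pgk1 climbs over a narrower range, and the kept row of Hif1a is flat.

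Other HIF targets served as the measure in turn. With Bnip3 in place of Egln3, 16 of 35 members rose although only 27 genes of the array (0.122%) were called, and with Ndrg1 11 members rose among 828 genes (3.73%). With Adm 0 members were called by limma (18 at an unadjusted p under 0.05) among 32 genes (0.144%). With Car9, the weak row described above, 1 member, Ddit4, was called and it fell, among 910 genes (4.1%). Members thus made up 16 of the 27 genes called with Bnip3, whereas with Car9 6 of 35 member slopes were above 0.

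Read from the enzyme side, with Pgk1 as the measure, few genes of the array were called. Limma called 28 of 22179 genes (0.126%), 27 of which rose (0.122%) and 1 fell (0.00451%), and 13 of the 27 that rose were members, 37.1% of the 35 tested. The other 14 included Vegfa, the angiogenic growth factor, Ero1a, an oxidase of the endoplasmic reticulum, and Fam162a, Higd1a and Mgarp, mitochondrial proteins linked to hypoxia. Pgk1 itself spanned only 2.21-fold, so these slopes rest on small differences in the Pgk1 level.

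Per SD of Pgk1 (0.33 log2), Egln3 rose by 0.96 ± 0.18 (SE, n = 27; limma adjusted p = 0.0124), Ddit4 by 0.82 ± 0.10 (limma adjusted p = 6.58e-05) and Slc2a1 by 0.77 ± 0.13 (limma adjusted p = 0.00415). Ak4 rose by 0.71 ± 0.10 (limma adjusted p = 0.000368), Bnip3 by 0.68 ± 0.08 (limma adjusted p = 3.47e-05) and Pfkl by 0.65 ± 0.07 (limma adjusted p = 1.14e-05). The 5 members with the largest slopes are HIF targets or the glucose importer, but a log2 slope also scales with a gene's own spread. The SD was 1.33 for Egln3 and 0.33 for the enzyme Tpi1. By limma's adjusted p the enzymes Pfkl and Tpi1 (both 1.14e-05) came first and Pdk1 next (1.27e-05), while Egln3 had the highest of those 5 members. Slc16a3, Pdk1, Pfkfb3, Pgam1, Tpi1, Pkm and Ldha rose by 0.25 to 0.53 per SD. By role, 4 of 13 HIF targets, 4 of 6 uptake and switch genes, 5 of 13 enzymes and none of the 3 subunits rose.

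The fits on Egln3 and Pgk1 use the same 27 tumours, so their agreement is not independent. In the fits over all 27 tumours 11 members rose in both: the HIF targets Ddit4, Bnip3 and Ak4, the uptake and switch genes Slc2a1, Slc16a3, Pdk1 and Pfkfb3, and the enzymes Pfkl, Tpi1, Pkm and Ldha. Ndrg1, Egln1, Kdm3a, P4ha2, Hk2 and Aldoc rose with Egln3 and did not pass with Pgk1, where Ndrg1 had a slope of 0.39 (adjusted p = 0.19) and Hk2 of 0.53 (adjusted p = 0.178). Pgam1 passed with Pgk1 and not with Egln3. Among these 11, the Egln3 call of Pfkfb3 (limma adjusted p = 0.0495) remained in 6 of the 27 fits that left out 1 tumour and in 2 of 10 other settings. It was lost among others with quantile normalization (adjusted p = 0.0517), median centring (0.0557), composition covariates (0.139) and ranks of Egln3 (0.0601). The Pgk1 call of Pfkfb3 (limma adjusted p = 0.0369) remained in 15 of the 27 and in 6 of the 10. The Egln3 call of Ldha (limma adjusted p = 0.0398) remained in 19 of the 27 and in 4 of the 10. It was lost among others with composition covariates (adjusted p = 0.0625), ranks (0.0725) and in the higher neuroendocrine cluster (0.166). Of the members that rose with Egln3 alone, Kdm3a and Hk2 kept the call in 6 and 19 of the 27. The 9 other members of the 11 kept both calls in all 27. The 16 members that passed in neither fit were Adm, P4ha1, Mxi1, Car9, Car12, Pfkfb4, Slc2a3, Hk1, Pfkm, Pfkp, Pgam2, Eno2, Ldhb and the 3 subunits. Of the 13 genes made up of these 11 with Egln3 and Pgk1, 10 (76.9%) held ACGTG in the window before at least 1 start. Of the 20 other members with an entry 9 (45%) did. For ACGTG or GCGTG the counts were 12 (92.3%) and 17 (85%). Over all genes the shares were 20.4% for ACGTG and 47.8% for either. The median G and C content was 66.4% for the 13 and 62.4% for the others. The 13 were picked by their calls in these tumours, and the difference in motif shares was not tested.

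Within the lower luminal cluster 3 members (Ak4, Pfkl and Tpi1) were called with Pgk1, among 4 genes in all (0.018%). Within the higher luminal cluster 5 were called (Aldoc, Bnip3, Ddit4, Egln3 and Pfkl), among 7 genes (0.0316%). In the 23 tumours of the higher neuroendocrine cluster 13 of 35 members were called, against 0.126% of genes, of which 11 were called over all tumours too: Egln3 and Pfkfb3 lost their call and P4ha1 and Pfkp gained one. The count was 14 with the composition scores as covariates, against 1.95% of genes, and 12 without P219, P268 and P425, against 0.0766%, where Egln3 and Pfkfb3 were again not called. Pfkl was therefore called with Pgk1 in both luminal clusters. Leaving out 1 tumour moved the count of all genes from 28 to 15 without P502, 18 without P966, 18 without P268, 54 without P425 and 109 without P237, and the members called stayed between 12 and 16.

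The score of the HIF targets, the mean of their centred log2 levels, was set against the score of the glycolytic enzymes. Over the 27 tumours Pearson's r was 0.633 (jackknife SE 0.0995) and Spearman's rho 0.600, given as a description since the members share arrays and normalization. Without P502 and P1276, the tumours farthest from the median HIF score, r was 0.534. Within the luminal clusters r was 0.448 in the 18 tumours and 0.873 in the 9. With Pfkm, Pgam2, Aldoc, Eno2 and Hk1 left out of the enzymes r was 0.802, higher than with all 14 enzymes. All of these but Aldoc are also the enzymes with the lowest slopes on Egln3 (-0.04 to 0.10).

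Tumours differed in which side they led. P1276 had a HIF target score of 0.85 and an enzyme score of 0.62 and held the highest level of 9 of the 36 members. P966 followed with 0.80 and 0.49, and P1469 with 0.53 and 0.69. P803 led the enzymes at 0.78 with a HIF target score of 0.30, and P474 was high in HIF targets at 0.60 with 0.21 for the enzymes and a luminal score of -1.44. Tumours of the higher luminal cluster lay at both ends: HIF target scores were above 0 in 5 of its 9 (P1276, P966, P1469, P471 and P803) and below 0 in P569 (-0.12), P425 (-0.61), P219 (-0.63) and P502 (-0.93). P474, P311 (0.36) and P902 (0.35), all of the lower cluster, had higher HIF target scores than P803.

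At the other end P502 was lowest in HIF targets at -0.93, with -0.45 for the enzymes, and ranked in the lowest 3 for 15 members. P912 was lowest in enzymes at -0.58 with a HIF target score of only -0.27, and ranked in the lowest 3 for 14 members. P235, P268, P219 and P425 had HIF target scores from -0.75 to -0.61 with enzyme scores from -0.32 to 0.06. These 4 carried high scores of other tissue: skeletal muscle 2.94 in P219 and 2.02 in P268, adipose 3.23 in P425 and 1.01 in P235. Their part in the low HIF target scores was not tested, and without P219, P268 and P425 the r between the scores was 0.707.

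**Figure D4:**
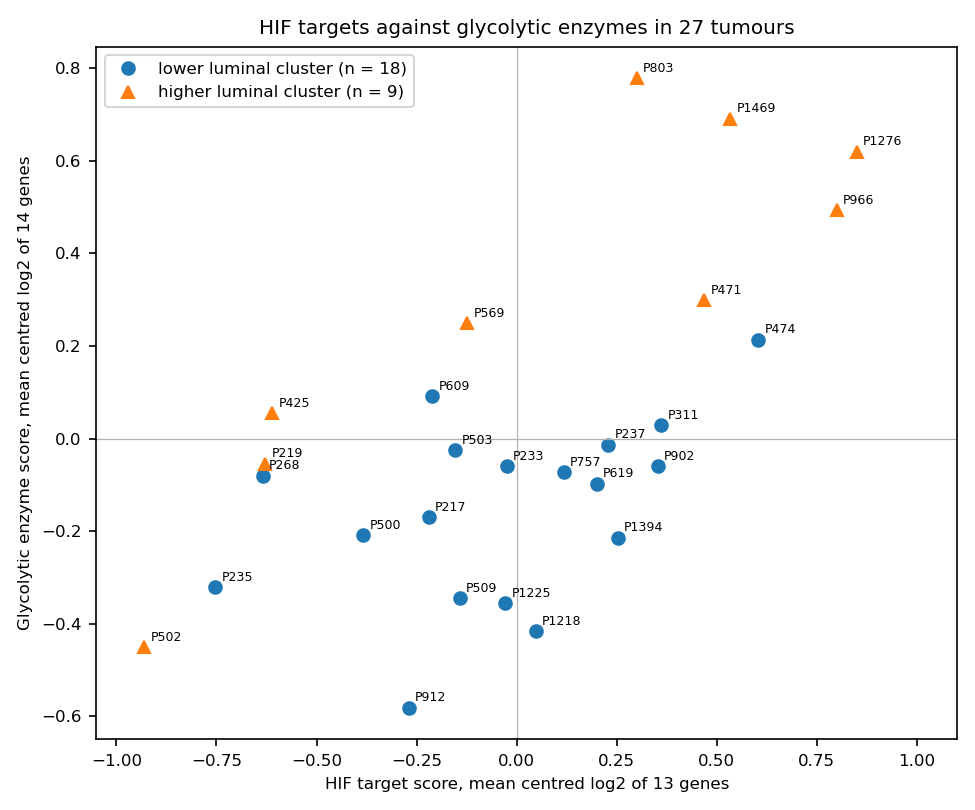
Glycolytic enzyme score (vertical axis, mean centred log2 of 14 genes) against HIF target score (horizontal axis, mean centred log2 of 13 genes) in 27 named tumours; triangles are the 9 tumours of the higher luminal cluster and circles the other 18. The points rise together (r = 0.633), P803 stands above the rest and P912 below.

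**Figure D5:**
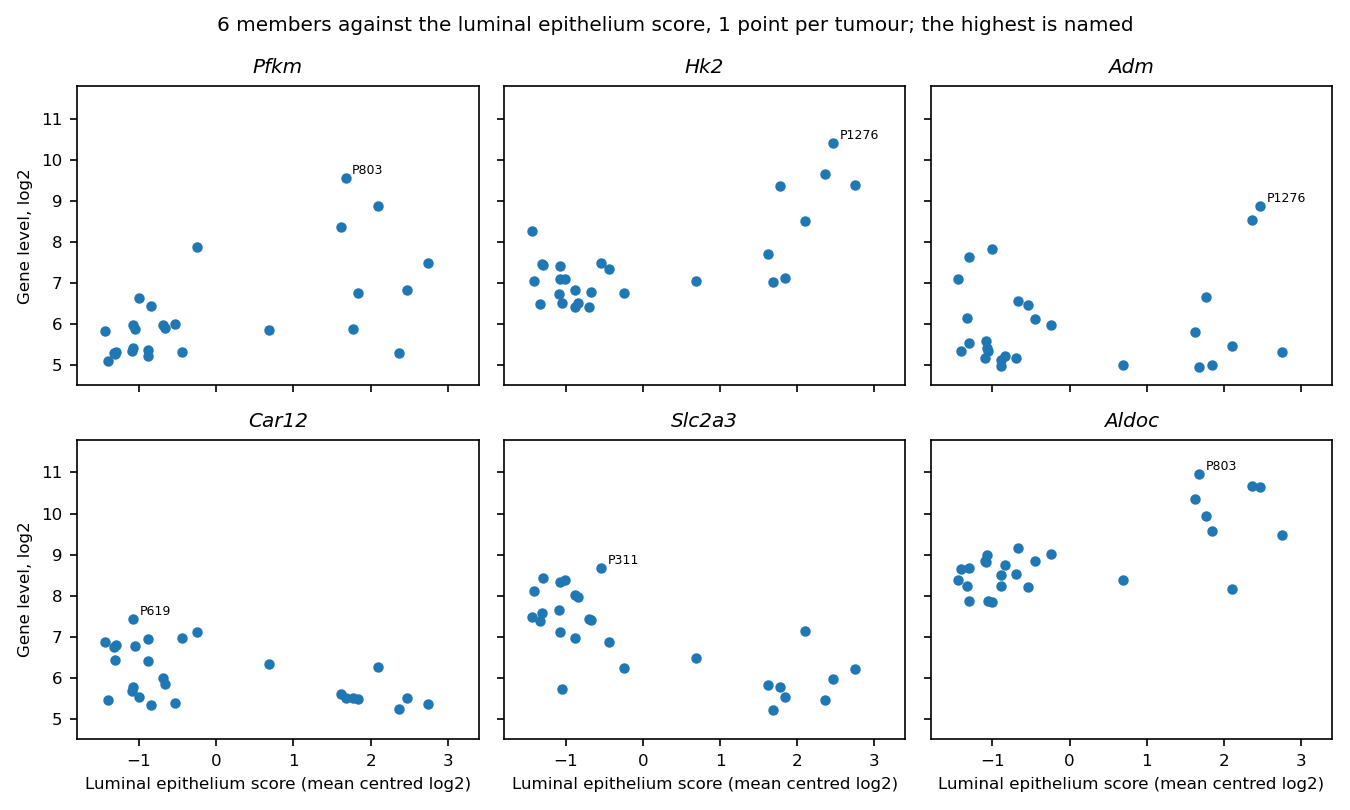
Log2 level of Pfkm, Hk2, Adm, Car12, Slc2a3 and Aldoc (vertical axes) against the luminal epithelium score (horizontal axes, mean centred log2 of 10 markers), 1 point per tumour with the highest named. The 5 tumours with high Hk2 all lie at a high luminal score, where P569, P803 and P1469 had lower Hk2. High Adm occurs at both ends, and Slc2a3 is highest at low luminal scores.

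Vessel supply was approached through an endothelium score of 12 markers such as Pecam1 and Cdh5. Limma called 4 of 36 members on it (11.1%) against 9.48% of all genes (5.38% rose and 4.1% fell), a share near the background. Hk2 rose by 0.63 ± 0.17 per SD (SE, n = 27; limma adjusted p = 0.0217), Slc2a1 by 0.57 ± 0.16 (limma adjusted p = 0.0267) and Aldoc by 0.47 ± 0.14 (limma adjusted p = 0.0395), while Pfkfb4 fell by 0.21 ± 0.07 (limma adjusted p = 0.0481). Egln3 did not pass, with a slope of 0.47 and a 95% confidence interval from -0.02 to 0.95. Other tissue markers moved with the same score: 6 of 10 luminal markers rose and 1 fell (median slope 0.99), 6 of 8 fibroblast markers rose and 4 of 12 neuroendocrine markers fell. The separate part of each list in these slopes was not tested. These calls rested on few tumours: 0 members were called without P471 (11 at an unadjusted p under 0.05) or without P1276 (8), 1 without P966, 2 without P1469, P902, P1225, P1218 or P1394, and 6 without P235. With the composition scores as covariates, and in the higher neuroendocrine cluster, limma called 0 of 36 (22 and 4 at an unadjusted p under 0.05), against 0.0135% and 0.334% of genes. The genes called over the array fell from 2101 to 617 without P471, 667 without P1276 and 1028 without P966.

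Against a mitosis score of 13 measured genes limma called 6 of 36 members (16.7%), fewer than the background of 25.5% (12.2% rose and 13.3% fell). On its kept row Hif1a rose by 0.16 ± 0.03 per SD (SE, n = 27, limma adjusted p = 0.00155). With the mean of its rows Hif1a was not called on the mitosis score, so this result too depends on the row. P4ha1 rose by 0.30 ± 0.09 (limma adjusted p = 0.0184) and Pfkp by 0.27 ± 0.09 (limma adjusted p = 0.0199). Hk2 fell by 0.58 ± 0.17 (limma adjusted p = 0.0155), Ldhb by 0.22 ± 0.07 (limma adjusted p = 0.0265) and Hif3a by 0.12 ± 0.03 (limma adjusted p = 0.00127). P425 had by far the lowest mitosis score (-1.85) and also the lowest Hif1a, P4ha1 and Pfkp. Within the lower and higher luminal clusters limma called 0 of 36 members (2 and 3 at an unadjusted p under 0.05), against 2.09% and 1.44% of genes. Without P219, P268 and P425 the slope of Pfkp was -0.03, and 10 members were called against 15.7% of genes, and all 10 fell: Egln3, Ddit4, Egln1, Ndrg1, Slc2a1, Pfkl, Aldoc, Pkm, Tpi1 and Hif3a. P425 alone ended 5 of the 6 calls: without it only Hif3a was still called, and Hif1a, P4ha1, Pfkp, Hk2 and Ldhb were not. Without P425 Egln3, Ddit4, Pfkl, Pkm, Slc2a1 and Aldoc were called instead, and the genes called over the array fell from 5649 to 3045. In the fit over all 27 tumours 8 of 10 luminal, 6 of 8 smooth muscle and 4 of 5 adipose markers also fell with the mitosis score. The separate part of each list in the members' slopes was not tested.

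Among further genes of the pathway, 6 of 26 other HIF targets rose with Egln3 and none fell: Bhlhe40, a circadian repressor (0.60 ± 0.12; limma adjusted p = 0.00636), Ero1a (0.51 ± 0.09; limma adjusted p = 0.00228), Narf (0.39 ± 0.08; limma adjusted p = 0.00624), Vegfa (0.38 ± 0.10; limma adjusted p = 0.0254), the collagen lysyl hydroxylase Plod1 (0.37 ± 0.12; limma adjusted p = 0.049) and the glycogen synthase Gys1 (0.27 ± 0.08; limma adjusted p = 0.0308), each with its SE over 27 tumours. With Pgk1, 4 of 26 rose, namely Ero1a, Vegfa, Fam162a and Higd1a, by 0.28 to 0.52. Of 9 HIF regulators 1 rose with Egln3, Siah2, the ubiquitin ligase that targets prolyl hydroxylases (0.25). Of 18 other glycolysis genes 1 fell, Slc16a7, the high-affinity monocarboxylate transporter MCT2 (-0.45). Of 17 genes listed with the respiratory chain 2 rose: Ndufa4l2, a HIF-induced subunit paralogue (0.31), and Lonp1 (0.19), which encodes a protease and not a chain subunit. Over all genes 4.41% rose and 2.56% fell along Egln3, and 0.122% rose along Pgk1. The lists with 1 or 2 calls were not tested against these shares.

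Outside the pathway, the genes with the steepest rise along Egln3 were Pla2g2a, Dsc3, Tgm3, Pkp1 and Dsg2, by 0.99 to 1.22 log2 per SD. Of these, Dsc3, Pkp1 and Dsg2 encode desmosome proteins of epithelia, and Tgm3 an epithelial transglutaminase. Those with the steepest fall were Cdcp3, Msmb, Glra2, Ptprz1 and Calb1, with slopes from -1.78 to -1.34, of which Msmb is a secretory prostate gene. Pla2g2a, Dsc3, Dsg2, Cdcp3, Msmb and Glra2 had medians of 4.69 to 5.78 log2, below the median row level, and highest values of 10.25 to 11.90. The medians of Tgm3, Pkp1, Ptprz1 and Calb1 were 5.94 to 8.86. Along Pgk1 the steepest were Ero1a, Vstm2b, Vegfa, Grhpr and Snord104, by 0.39 to 0.52.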

How the data were processed

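Total RNA of 27 snap-frozen tumours was labelled with biotin and hybridised to 1-colour arrays, 1 per tumour, per the labels' protocols. The authors deposited 41345 rows of log2 expression, with values from 1.68 to 14.5. Partek is the tool named in the submitters' processing notes, without a version; the sources used here do not state how background was corrected and arrays were normalized, and what that step added or removed cannot be traced. Precision is limited by the number of arrays, and low values lie near background. Rows were named through the platform's probe table: 23521 carried 1 symbol, 1814 several, and 16010 were unnamed; 1082 genes had several rows, of which that with the highest mean was kept. Correlations between arrays ran from 0.891 to 0.986, and no array repeated another.

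Every gene was fitted on Egln3, Pgk1, an endothelium score and a mitosis score, each scaled to SD 1, with limma 3.58.1 (lmFit, eBayes with trend) in R 4.3.3; p was adjusted by Benjamini-Hochberg over all genes at a threshold of 0.05. The genes making up a predictor were left out. The fit was tested on simulated data. A marker score is the mean of centred log2 values. Separate clusters were called with mclust 6.1.1 where the BIC of 2 components exceeded that of 1 by over 6, the smaller component held 3 tumours or more and Ashman's D exceeded 2; Egln3, Pgk1 and the scores fitted did not separate. The red blood cell markers were not measured. The labels name no batch. The tumours are from separate animals and form 1 group, so no groups were compared.

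The members, the lists and Egln3 as the measure were chosen with earlier results of these data known. The text gives levels for all measured members by role; slopes with SE and adjusted p for up to 6 called members per direction with the largest slopes in each fit; outside the members, up to 6 called genes of the other HIF targets and the 5 steepest called genes per direction along Egln3 and Pgk1. Single tumours, members that did not pass, the remaining called genes of the pathway lists and the examples among the 14 other genes along Pgk1 were named after their values were seen. Promoter sequences are RefSeq's (GRCm38.p6). Alternatives are listed in the closing section; those within luminal clusters, and without P219, P268 and P425, were chosen after seeing the data.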

Additional observations from a re-analysis of the deposited data

How the results depend on the processing

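Alternatives were quantile normalization, median centring, low genes left out, composition scores as covariates, ranks of the predictor, the mean of a gene's rows, the higher neuroendocrine cluster, each luminal cluster, P219, P268 and P425 left out, other measures in place of Egln3, and each tumour left out. The cause of the changes below was not tested. The clusters hold fewer tumours (23, 18, 9), and the part of that smaller number in the counts was not tested either. No paired analysis was possible because there is 1 group. The members called along Egln3 numbered 1 in the lower and 0 in the higher luminal cluster, 0 with Adm, 11 with Ndrg1 and 1 with Car9; along Pgk1 3 and 5 in the luminal clusters; along endothelium 0 with composition covariates and in the higher neuroendocrine, lower luminal and higher luminal clusters; along mitosis 3 in the higher neuroendocrine cluster, 0 in each luminal cluster and 10 without P219, P268 and P425. Without 1 tumour they ranged from 12 to 19, 12 to 16, 0 to 6 and 6 to 8 along Egln3, Pgk1, endothelium and mitosis. These counts do not fix the genes: without P425, 7 members were called along mitosis, of which 1 (Hif3a) is among the 6 over all tumours.

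Over all genes, the count along Egln3 was 3464 with composition covariates, 2739 without P219, P268 and P425, 15 and 0 in the lower and higher luminal clusters, 27 with Bnip3, 32 with Adm, 828 with Ndrg1 and 910 with Car9. Along Pgk1 it was 43 among genes above the median level, 433 with composition covariates, 45 with ranks, 4 and 7 in the luminal clusters and 17 without the 3 tumours. Along endothelium it was 3 with covariates, 74 in the neuroendocrine cluster, and 73 and 0 in the luminal clusters. Along mitosis it was 2405 in the neuroendocrine cluster, 463 and 320 in the luminal clusters and 3490 without the 3 tumours. Without 1 tumour the ranges were 445 to 3032, 15 to 109, 617 to 2837 and 3045 to 6216. The r between scores was 0.533 in the neuroendocrine cluster, 0.448 and 0.873 in the luminal clusters and 0.802 without Pfkm, Pgam2, Aldoc, Eno2 and Hk1, and ran from 0.578 to 0.664 without 1 tumour.

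No called slope changed sign when 1 tumour was left out. Aldoc on Egln3 reversed in the lower luminal cluster (-0.002) and Pfkp on mitosis without P219, P268 and P425 (-0.0348). Other rows of Car9, Pdk1 and Hif1a correlated with the kept row at 0.146, 0.119 and 0.173, so levels of these genes depend on the row. With the mean of the rows Hif1a was called along Egln3 (slope 0.18, limma adjusted p = 0.0441) and was no longer called along mitosis. The slope of Car9 on Egln3 turned to 0.19.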
